A study of Mus musculus with 6 samples.

Results

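The alpha crystallins and the small heat shock proteins form a single family of chaperones, and the lens uses it on a scale that few tissues reach. The genes examined were Cryaa and Cryab, the alpha crystallins; Hspb1, Hspb2, Hspb3, Hspb6, Hspb7 and Hspb8, the other small heat shock proteins; Hspb11, which carries the family's name; and Bag3, the co-chaperone that holds Hspb8. They were chosen by name and matched by gene symbol. Of these 10 genes, 9 were among the 13931 genes of the deposited table, and all 9 had an average log2 CPM above 1. Hspb7 was not in the table and was not analysed here.

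The libraries came from whole lenses of mice at birth (postnatal day 0), 3 of them Control and 3 Celf1cKO, and 2 lenses were pooled for each. Celf1cKO mice carried a germline knockout allele of Celf1 (Celf1lacZKI), a conditional allele with a floxed exon (Celf1flox), and Pax6GFPCre, a Cre line that becomes active in the lens placode. Controls were Celf1lacZKI/+ by their labels, but the methods of the study describe animals with Celf1flox and no Cre as its usual controls, so which of these the Control lenses were was not settled. All mice were of a mixed C57BL/6 and FVB background. The comparison asks how this chaperone family changed when the gene of the RNA-binding protein Celf1 was disrupted in the lens. The paper reports that deletion was incomplete, with part of the Celf1 transcripts in Celf1cKO lenses still including the floxed exon.

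Small heat shock proteins bind unfolding proteins and hold them in solution without using ATP. Fiber cells, which make up most of the lens, lose their nuclei and organelles and keep their proteins for life, and alpha crystallin is their main holding chaperone. Alpha crystallin is built from the products of Cryaa, which is largely a lens gene, and Cryab, which is also made in heart and muscle. Hspb8 binds Bag3, and with Hsp70 and a ubiquitin ligase this complex passes damaged proteins, filamin above all, to autophagy. Heat shock factors drive many of these genes, and Hsf4 is the main heat shock factor of the lens.

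The libraries held between 40694454 and 44387151 reads on the genes of the table, and the floor of 3 reads stood between 0.0609 and 0.0807 CPM (counts scaled to equal library size). Celf1, the targeted gene, stood at 9.95, 9.94 and 9.34 log2 CPM in Control 1, 2 and 3 and 8.93, 7.66 and 7.83 in Celf1cKO 1, 2 and 3. The log2 fold-change of Celf1 was -1.60 (SE 0.34, limma adjusted p = 0.0269, n = 3 per group). Control 1 and 2 held 5501 and 5340 reads on Y-linked genes. Control 3 and the 3 Celf1cKO libraries held between 15 and 22. Xist was read the other way round, with 188 and 12 reads in Control 1 and 2 and at least 14709 in the others. In this feature only Control 3 matches the Celf1cKO libraries. Values against Control 3 alone, from a model with a term for the Y-linked reads, are therefore given beside the calls described. For Celf1 this value was -1.20 (adjusted p = 0.20), and its call was also lost when any library but Celf1cKO 1 was left out (adjusted p between 0.056 and 0.108).

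A promoter window from RefSeq (GRCm38.p6), running from 250 bases before to 50 bases after a gene's start, was matched for 8 of the 10 genes. Cryab and Hspb2 had none. Heat shock factors bind inverted repeats of a short unit, and a head-to-head pair of units reads GAANNTTC, which is the same on both strands. This pair was in 5.69% of the 13877 windows of genes in the table. It was in the windows of Hspb1, Hspb3, Hspb8 and Bag3 and in the downstream one of the 2 windows of Hspb6, and in none of the windows of Cryaa, Hspb7 and Hspb11. The tail-to-tail pair, TTCNNGAA, was in 6.66% of these windows and in none of the windows of the 8 genes. The whole window of Hspb8 is shown because Hspb8 had the largest change of the family, and the match, which begins at base 3 after the start, is in capitals.
Hspb8 (chr5:116422815-116423114, minus strand): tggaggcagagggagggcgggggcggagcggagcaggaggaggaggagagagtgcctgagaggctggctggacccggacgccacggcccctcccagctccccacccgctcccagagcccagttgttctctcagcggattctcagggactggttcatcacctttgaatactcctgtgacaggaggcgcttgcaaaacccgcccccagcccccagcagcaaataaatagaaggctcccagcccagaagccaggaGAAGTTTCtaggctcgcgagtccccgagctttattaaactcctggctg

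The matches in Hspb1 and Bag3 are shown with up to 16 bases on either side, for comparison with the partner gene of Hspb8 and with a heat-inducible member of the family. Cryaa is shown with the letters TGCTGAC, in capitals, to which Maf factors of the lens bind. They were searched on both strands and were in 3.78% of the windows of genes in the table. Positions are counted from the RefSeq start of each window. The GENCODE gene of Cryaa begins further upstream, at 31677807, so by that annotation its match lies inside the gene.
Hspb1, from base 117 before the start (chr5:135887786-135887825, plus strand): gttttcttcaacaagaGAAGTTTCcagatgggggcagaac
Hspb1, from base 97 before the start (chr5:135887806-135887845, plus strand): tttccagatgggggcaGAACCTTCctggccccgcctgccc
Bag3, from base 43 after the start (chr7:128523609-128523632, plus strand): tctctggatgggaccaGAAGTTTC
Cryaa, from base 108 before the start (chr17:31677807-31677845, plus strand): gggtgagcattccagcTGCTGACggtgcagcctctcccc
The same 8 letters, GAAGTTTC, stood in the windows of Hspb8, Bag3, Hspb1 and Hspb6. A match is a string of letters, and binding was not measured.

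Levels of the family spanned more than 4 orders of magnitude in the control lens. Per kb of exon, Cryaa stood at 73163 ± 3719 CPM (SD, n = 3) and Cryab at 9368 ± 1002 CPM. Cryaa had the highest average log2 CPM of all genes in the table, and Cryab the 10th highest. Hspb1 followed at 42.2 ± 10.9 CPM per kb, Hspb3 at 32.1 ± 6.48 and Hspb2 at 29.4 ± 1.84. The range of Hspb3 overlapped those of both others, so its place among them is not resolved, while every Control library of Hspb1, from 32.8, lay above every one of Hspb2, up to 31.0. Hspb6 stood at 6.91 ± 0.13 CPM per kb and Hspb11 at 6.11 ± 0.59, with ranges that met at 6.77 and 6.78. Bag3, at 2.96 ± 0.41 CPM per kb, and Hspb8, at 2.63 ± 0.75, were the lowest and overlapped. In the Celf1cKO lens the order of the means changed below the alpha crystallins. Hspb8 stood at 37.7 ± 13.5 CPM per kb there, between the means of Hspb1 at 29.1 ± 3.66 and Hspb3 at 42.0 ± 9.58 and with a range that overlapped both, while Bag3 was lowest at 2.85 ± 0.36. These levels are read counts over annotated exon length and do not measure protein.

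**Figure D1:**
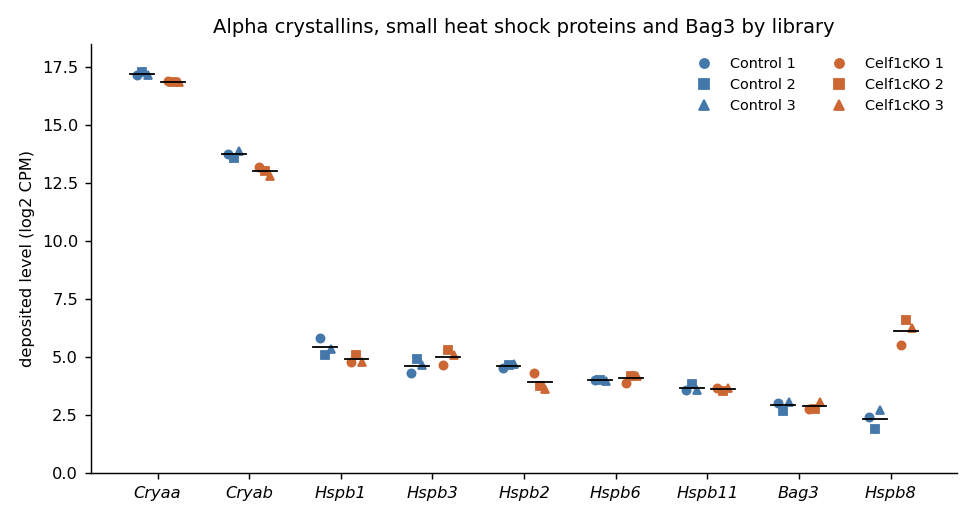
Deposited log2 CPM of the 9 genes (y axis) in each of the 3 Control (blue) and 3 Celf1cKO (orange) libraries, ordered by their control mean, with bars at the group means. Hspb8 moves from 2.33 to 6.13 while Bag3 stays near 2.9, and both alpha crystallins sit lower in every Celf1cKO library than in any Control library.

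Of the 9 genes, 1 was elevated in Celf1cKO lenses (Hspb8), 1 was reduced (Cryab), and 7 did not pass the cut-offs, which were an average log2 CPM above 1, an adjusted p under 0.05 and a log2 fold-change beyond 0.58 up or down. Over all 13931 genes, 7.39% passed, with 4.77% elevated and 2.63% reduced. The median log2 fold-change was -0.05 over the 9 genes and -0.04 over all genes. The groups did not overlap for 4 of the 9 genes, Cryaa, Cryab, Hspb2 and Hspb8, against 36.5% of all genes. The deviations of same-numbered libraries ran together, which does not establish that they were pairs. A model blocked by replicate number called 1 of the 9 genes, Hspb8, and 1279 of all genes, beside 1030 in the main model. Against Control 3 alone 0 of the 9 genes were called by limma, and 16 of all genes were. At an unadjusted p under 0.05, 4 of the 9 genes passed in the main limma model, against 29.9% of all genes, and 3 in the model with the Y-linked term, against 23.6%, and limma voom on the recovered reads, without that term, called 3 genes. With total-count scaling, which moves the median of all genes to 0.19, the calls among the 9 genes were 1 elevated and 0 reduced, and 13.4% of all genes were called.

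**Figure D2:**
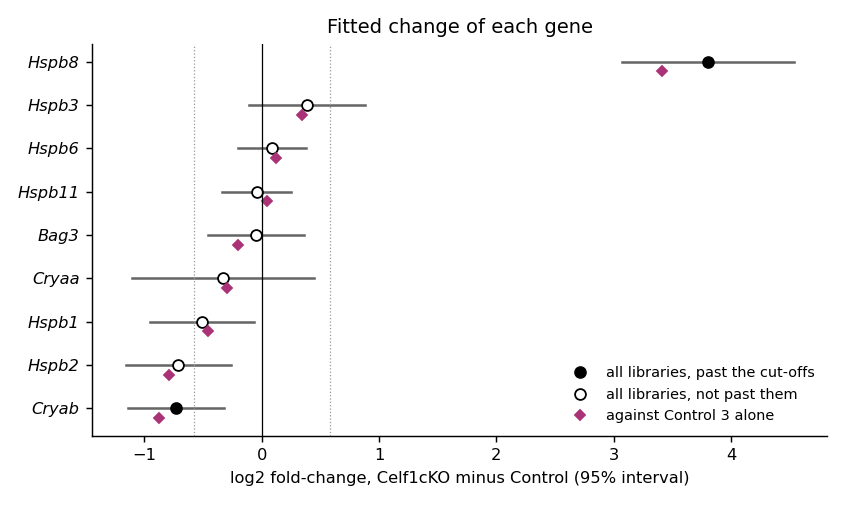
Fitted log2 fold-change of each gene (x axis, Celf1cKO minus Control) with its 95% interval from limma, filled where it passed the cut-offs, and as a diamond the value against Control 3 alone. Dotted lines mark 0.58 in either direction. Hspb8 stands apart at 3.80, and the other 8 genes lie between -0.73 and 0.38.

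Hspb8, on chromosome 5 (116408491 to 116422864, minus strand), carried the largest change. It was at 2.39, 1.88 and 2.72 log2 CPM in Control 1, 2 and 3 and 5.51, 6.61 and 6.27 in Celf1cKO 1, 2 and 3. These values rest on 135 to 258 reads in Control and 1961 to 4753 in Celf1cKO, and the lowest Celf1cKO library, at 45.7 CPM, stood 6.97-fold above the highest Control library. The log2 fold-change was 3.80 (SE 0.31, 95% interval 3.07 to 4.54, limma adjusted p = 0.00855), a 13.9-fold rise. With the replicate block the adjusted p was 0.0133. Against Control 3 alone the log2 fold-change was 3.41 (adjusted p = 0.0621). Without Control 2 it was 3.58 (adjusted p = 0.0512) and without Celf1cKO 3 it was 3.73 (adjusted p = 0.0607), so the call was lost in these fits although the size remained. Hspb8 overlapped no other annotated gene, and no other transcript matched it over 100 bases at 90% identity.

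Bag3, the scaffold that binds Hspb8 and Hsp70 together, did not pass the test. It was measured at 3.01, 2.68 and 3.07 log2 CPM in Control and 2.78, 2.77 and 3.07 in Celf1cKO, and the groups overlapped. The log2 fold-change was -0.05 (95% interval -0.46 to 0.36, limma adjusted p = 0.880). The ratio of Hspb8 to Bag3, both per kb of exon, was 0.854, 0.748 and 1.03 in Control and 8.82, 19.0 and 12.1 in Celf1cKO. Transcripts of the pair were thus near parity in every Control library, and Hspb8 exceeded Bag3 in every Celf1cKO library. The difference in change between Hspb8 and Bag3 was not tested.

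Cryab and Hspb2 lie head to head on chromosome 9, with Cryab at 50751325 to 50756636 on the plus strand and Hspb2 at 50751078 to 50752354 on the minus strand. Their exons share 252 bases, which is 17% of the exonic length of Cryab and 30.2% of that of Hspb2. The libraries were strand-specific, but the strand setting of the counting is not given in the sources used here, so how far reads of the abundant Cryab enter the value of Hspb2 was not tested. Cryab stood at 13.77, 13.59 and 13.90 log2 CPM in Control and 13.21, 13.04 and 12.81 in Celf1cKO, without overlap. It fell by 0.73 on the log2 scale (SE 0.17, 95% interval -1.14 to -0.32, limma adjusted p = 0.0387), while quantile normalization, which sets the most abundant genes to like values in every library, gave 0.11 (adjusted p = 0.525). The call was lost with the replicate block (adjusted p = 0.0658), and against Control 3 alone the log2 fold-change was -0.88 (adjusted p = 0.0926). It was also lost when any library but Celf1cKO 1 was left out, with adjusted p between 0.0774 and 0.181 and log2 fold-changes between -0.82 and -0.63.

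Hspb2, which partners Hspb3 in muscle, was 4.52, 4.64 and 4.69 log2 CPM in Control and 4.33, 3.77 and 3.61 in Celf1cKO. Celf1cKO 1 was closest to the Control libraries, and the groups did not overlap. Its log2 fold-change of -0.71 was close to that of Cryab but did not pass the test (SE 0.19, limma adjusted p = 0.0533, and 0.0532 with the block). Without Celf1cKO 1 it was -0.93, with an adjusted p of 0.00488, and against Control 3 alone -0.79 (adjusted p = 0.178). The difference in change between Hspb2 and Cryab was not tested.

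Cryaa, on chromosome 17 (31677807 to 31681733, plus strand), was 17.16, 17.30 and 17.18 log2 CPM in Control and 16.92, 16.84 and 16.87 in Celf1cKO. The groups did not overlap, and the SD was 0.07 in Control and 0.04 in Celf1cKO. The log2 fold-change was -0.33 and did not pass the test (SE 0.33, 95% interval -1.11 to 0.44, limma adjusted p = 0.536). This standard error is wider than the spread of the libraries, since the model sets the variance of a gene partly by that of genes of like level. Without the trend of variance on level the adjusted p was 0.102, and with limma voom on the recovered reads it was 0.0470, in each case with a log2 fold-change below the cut-off. Cryaa shares 273 exonic bases with an antisense gene, AC090881.2, which is not in the table.

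Alpha crystallin transcripts took 15.4% ± 0.319 of the reads in Control and 14.0% ± 0.201 in Celf1cKO (SD, n = 3). The difference of -1.39 percentage points had an exact two-sided permutation p of 0.1, the smallest that 3 libraries against 3 allow. All crystallin genes together took 46.3% ± 0.584 of the reads in Control and 36.3% ± 1.96 in Celf1cKO. The share of alpha crystallins among crystallin reads therefore ran the other way, from 33.3% ± 0.706 in Control to 38.7% ± 1.84 in Celf1cKO (exact permutation p = 0.1). Its share of all reads thus fell by a smaller part than that of the crystallins as a whole. Within alpha crystallin, the ratio of Cryaa to Cryab reads was 10.5, 13.1 and 9.70 in Control and 13.1, 14.0 and 16.7 in Celf1cKO. Control 2 and Celf1cKO 1 were nearly the same, at 3.707 and 3.709 on the log2 scale. The mean log2 ratio was 0.40 higher in Celf1cKO (exact permutation p = 0.1), which is the smallest p possible here.

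**Figure D3:**
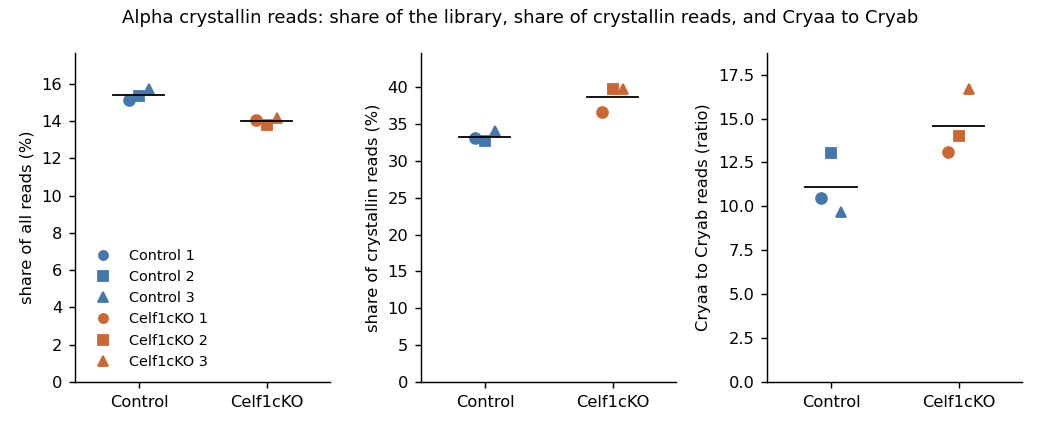
Share of alpha crystallin (Cryaa and Cryab) in all reads, its share in crystallin reads, and the ratio of Cryaa to Cryab reads, by library, with bars at the group means and y axes from 0. The first falls from 15.4% to 14.0% and the second rises from 33.3% to 38.7%, while the ratios of Control 2 and Celf1cKO 1 nearly touch.

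The remaining small heat shock proteins did not pass the test. Hspb1, a heat-inducible member that protects actin filaments, was 5.80, 5.08 and 5.36 log2 CPM in Control and 4.80, 5.10 and 4.80 in Celf1cKO. Control 2 lay within the Celf1cKO range, and the log2 fold-change was -0.51 (SE 0.19, limma adjusted p = 0.121). Transcripts of Gm9817 and Hsp25-ps1, neither in the table, matched Hspb1 at 99.8% over 477 and 441 bases, so reads that fit both were lost when only uniquely mapped reads were kept. Hspb3, the partner of Hspb2, was 4.31, 4.91 and 4.67 log2 CPM in Control and 4.65, 5.32 and 5.07 in Celf1cKO. Its log2 fold-change was 0.38 (SE 0.21, adjusted p = 0.261). In each of the 3 same-numbered pairs the Celf1cKO library was higher by a like amount, and with the block the adjusted p was 0.0445, with the fold-change still under the cut-off. Hspb6, which is abundant in muscle, was 4.02, 4.0 and 3.97 log2 CPM in Control and 3.89, 4.19 and 4.17 in Celf1cKO. Its log2 fold-change was 0.09 (SE 0.12, adjusted p = 0.663), and its exons share 122 bases with Proser3 on the other strand.

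Hspb11 is a subunit of the intraflagellar transport B complex, also called Ift25, and has no chaperone role in that complex. It was at 3.59, 3.82 and 3.57 log2 CPM in Control and 3.65, 3.55 and 3.66 in Celf1cKO, with overlapping groups. The log2 fold-change was -0.04 (limma adjusted p = 0.856). Its longest transcript holds a repeated element, with more than 90% identity over at least 100 bases to transcripts of many unrelated genes.

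Summed per kb of exon, Hspb1, Hspb2, Hspb3, Hspb6 and Hspb8 reached 117, 110 and 113 CPM in Control and 113, 159 and 132 CPM in Celf1cKO. The groups overlapped, because Celf1cKO 1 lay below Control 1 and Control 3. Celf1cKO 2 and 3 lay above every Control library, and the difference in the sum was not tested. Hspb8 was 2.29, 1.70 and 2.97% of this sum in Control and 20.8, 31.6 and 30.0% in Celf1cKO. Without Hspb8 the sums were 114, 108 and 110 CPM per kb in Control and 89.4, 109 and 92.5 in Celf1cKO. The sum of both alpha crystallins is far larger, so in reads the family as a whole was set by Cryaa in both groups.

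**Figure D4:**
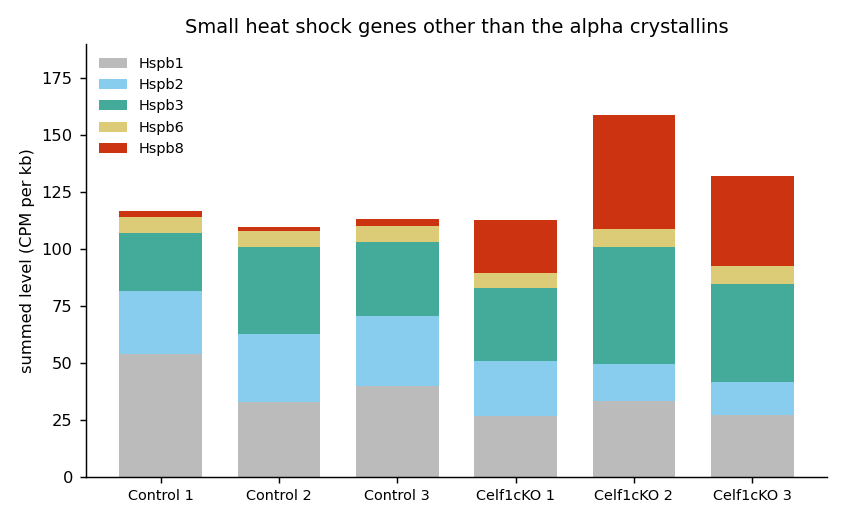
Summed level of the 5 small heat shock genes other than the alpha crystallins, in CPM per kb of exon, stacked by gene for each library with the axis from 0. Hspb8, at the top of each bar, is at most 2.97% of the sum in Control and at least 20.8% in Celf1cKO.

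The proteins that act with these chaperones were examined as lists. Over the 6 lists, 55 of 63 gene symbols were in the table. Of those not found, Ift38, Ift54, Ift56 and Ift70b are other names of Cluap1, Traf3ip1, Ttc26 and Ttc30b, which were measured. Of the 55 genes, 2 were elevated and 1 was reduced, beside 7.39% called among all genes, and their median log2 fold-change was 0.15. With total-count scaling 10 were elevated and 1 was reduced, beside 13.4% called among all genes. Among the partners of Bag3 and Hspb8 in chaperone-assisted autophagy, 1 of 12 measured genes was elevated and 0 were reduced by limma or limma voom, and 6 had an unadjusted p under 0.05 by each (all genes, 29.9% by limma and 30.6% by limma voom). Sqstm1 (p62), the receptor that links ubiquitinated proteins to autophagosomes, rose from 7.06, 6.96 and 6.94 log2 CPM in Control to 8.43, 9.49 and 9.04 in Celf1cKO. Its log2 fold-change was 2.0 (SE 0.24, limma adjusted p = 0.00940), and the call was lost against Control 3 alone (2.05, adjusted p = 0.0661), without Control 2 (adjusted p = 0.0512) and without Celf1cKO 3 (adjusted p = 0.0607). Flnc, the muscle filamin and the best known client of the complex, was at 2.0 as well (adjusted p = 0.0386), but its average of 0.50 log2 CPM was under the expression cut-off. The most abundant of the others were Hspa8, the constitutive Hsp70 of the complex, at -0.03 (adjusted p = 0.861), Ywhag at 0.56 (adjusted p = 0.0699), Wipi1 at -0.45 (adjusted p = 0.0288, under the fold cut-off) and Stub1, the ubiquitin ligase, at -0.15 (adjusted p = 0.216). Within this complex, then, transcripts of Hspb8 and Sqstm1 were elevated in the main model, with the same losses under those 3 fits, and those of Bag3, Hspa8 and Stub1 did not pass the test.

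Of the 4 measured heat shock factors and regulators 0 passed the cut-offs by limma or by limma voom, and 3 had an unadjusted p under 0.05 by each, beside the 29.9% and 30.6% of all genes given above. Hsf4 was 7.82, 7.98 and 7.87 log2 CPM in Control and 7.46, 7.54 and 7.44 in Celf1cKO, a log2 fold-change of -0.41 (limma adjusted p = 0.0210) that was under the fold cut-off. Hsbp1, a small protein that binds and restrains heat shock factors, was at 0.37 (adjusted p = 0.0395), also under it. Hsf2 was at 0.34 (adjusted p = 0.130) and Hsf1, which drives the acute heat shock response, at -0.29 (adjusted p = 0.217). Of 14 measured target genes of heat shock factors, 0 were called by limma or limma voom, 6 had an unadjusted p under 0.05 by each, beside the same shares of all genes, and the median log2 fold-change was 0.17. At an adjusted p under 0.05 without other cut-offs, which 11.9% of all genes passed, 3 of them did, with Cacybp at 0.44 and Hsp90aa1 at 0.42 higher and Ahsa1 at -0.38 lower. The most abundant target genes were Hsp90ab1 at 0.30 (adjusted p = 0.0963), Hspa8, Hsp90aa1 and Dnaja1 at 0.16 (adjusted p = 0.358). The measured targets ranged from -0.38 to 0.44, and Hspb8 lay far outside this range. Hspa1a and Hspa1b, also on the list, were not in the table, and the list leaves out the family itself, so the range covers neither. Whether heat shock factors had a part in the change of Hspb8 was not tested.

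Of the 5 other BAG proteins, 0 were called by limma or limma voom, with log2 fold-changes between -0.17 and 0.27. By limma 7.39% of all genes were called. At an unadjusted p under 0.05, 0 of the 5 passed by either, beside 29.9% of all genes by limma and 30.6% by limma voom. The most abundant was Bag6 at -0.17 (limma adjusted p = 0.245), followed by Bag1 at 0.00, Bag5 at 0.03 and Bag4 at 0.08. Of the filament and membrane proteins that alpha crystallin binds, 1 of 6 was reduced, beside 2.63% of all genes. Bfsp1, a subunit of the beaded filament of fiber cells, fell from between 12.91 and 13.24 log2 CPM in Control to between 11.24 and 12.09 in Celf1cKO, by 1.47 (adjusted p = 0.0139). Against Control 3 alone its value was -1.33 (adjusted p = 0.0978), and its call was also lost without Control 2 or Celf1cKO 3. Mip, the water channel of fiber cells, was at -0.37 (adjusted p = 0.187) and Vim, which encodes vimentin, at -0.08 (adjusted p = 0.695). Bfsp2 was 8.59 log2 CPM in Control 3 against 11.33 and 11.56 in Control 1 and 2, so its log2 fold-change of 0.20 (adjusted p = 0.878) rests on that library. It was -0.75 without Control 3 (adjusted p = 0.0587) and 2.10 against Control 3 alone (adjusted p = 0.0451), the only gene of the lists called in that model. Gfap, a glial filament gene, was at -2.32 (adjusted p = 0.0626), which passed with the block (adjusted p = 0.0407). Of the 15 measured IFT-B subunits beside Hspb11, 1 was elevated and 0 were reduced, beside 7.39% called among all genes. At an unadjusted p under 0.05 by limma 7 of them passed, beside 29.9% of all genes. Ift88, the elevated one, was at 1.07 (adjusted p = 0.0130) and at 1.01 against Control 3 alone (adjusted p = 0.0890). Its call was also lost without Control 2 or Celf1cKO 3. Ift74 at 0.35, Ift20 at 0.30, Ift52 at -0.19 and Ift57 at 0.15 did not pass.

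**Figure D5:**
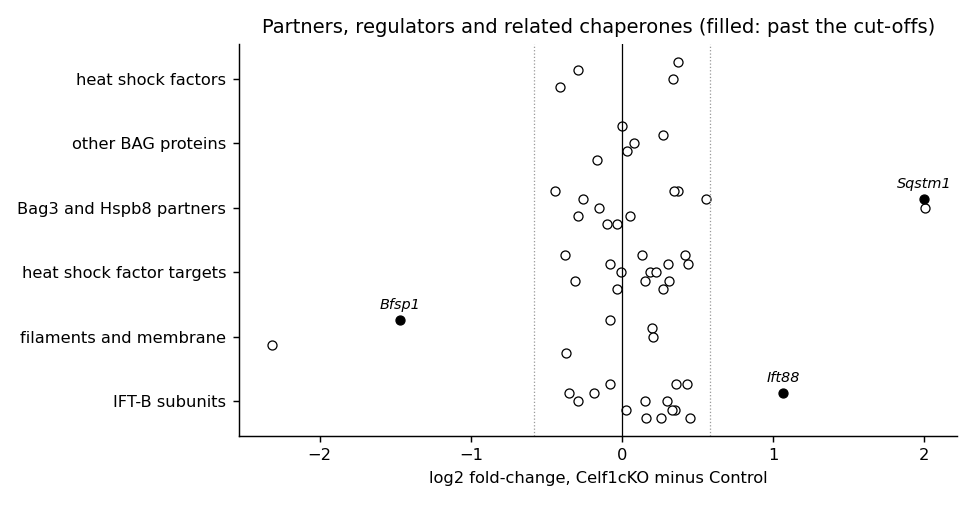
Log2 fold-change (x axis, Celf1cKO minus Control) of the 55 measured genes of 6 lists of partners, regulators and related proteins, each a point and filled where it passed the cut-offs, with dotted lines at 0.58 in either direction. Sqstm1 and Ift88 stand to the right and Bfsp1 to the left, and all points of the heat shock factors, their targets and the other BAG proteins lie between the dotted lines.

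Genes whose 6 values, taken as differences from the control mean, were nearest to those of Hspb8 were Ttn, Inka2, Fabp3, Ppp2r2c and Ndrg4. Their root mean square differences from Hspb8 ran from 0.27 to 0.56 log2 CPM over the 6 libraries, and their log2 fold-changes from 3.25 to 3.74, a likeness that the choice itself sets. Celf1cKO 2 was the highest and Celf1cKO 1 the lowest Celf1cKO library for each of them, as for Hspb8, an order that the choice also favours. Sqstm1 and Ift88, which were not chosen in this way, had the same order. So did genes that were not called, among them Hspb3, Ywhag, Hsbp1 and Cacybp, so the order was not particular to Hspb8. Celf1 itself was highest in Celf1cKO 1 and lowest in Celf1cKO 2 among the Celf1cKO libraries. The nearest to Cryab were Nav2, Mn1, Baiap2, Ccdc122 and Zmym6, at differences from 0.05 to 0.11 and log2 fold-changes from -0.84 to -0.59.

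Several of these genes are also made in cells other than lens cells, and in whole lenses fewer cells of a type and less RNA per cell cannot be told apart. Of 14 markers of striated muscle 4 were in the table. Ttn, the giant spring of the sarcomere, was elevated, at 3.65 (limma adjusted p = 0.00940), and Actn2 was reduced, at -4.23 (adjusted p = 0.0157). Against Control 3 alone neither was called (adjusted p = 0.0687 and 0.114). Mylpf, at most 0.81 log2 CPM, and Des, at most -0.34, did not pass, and Acta1, Ckm, Myod1 and Myog were not in the table. Of 8 measured markers of smooth muscle and pericytes 0 were called by limma or by limma voom, and 1 was called with the block. At an unadjusted p under 0.05 there were 2 by limma and 3 by limma voom, beside 29.9% and 30.6% of all genes. Their summed CPM was 97.3, 72.0 and 94.7 in Control and 73.7, 26.9 and 50.1 in Celf1cKO. Rgs5, the most abundant of these markers, was at -1.75 (limma adjusted p = 0.175). Acta2, Des and Myh11 went the other way, with Acta2 at 0.56 (adjusted p = 0.184) and highest in Celf1cKO 2. Of 8 endothelial markers 0 were called by limma or limma voom, and 1 had an unadjusted p under 0.05 by each, beside the same shares of all genes. Their summed CPM was 132, 95.7 and 106 in Control and 124, 23.4 and 53.9 in Celf1cKO. Celf1cKO 2, lowest in both sums, was the highest library for Hspb8 and the middle one of the Celf1cKO libraries for Cryab and Hspb2. Of 9 measured fiber cell markers 4 were reduced (Bfsp1, Gja3, Dnase2b and Birc7), with a median of -0.37. Of 10 epithelial markers 1 was reduced (Foxe3 at -2.01), with a median of -1.04. Over all genes 2.63% were reduced. At an unadjusted p under 0.05 by limma, 4 fiber cell and 7 epithelial markers passed, beside 29.9% of all genes. By limma voom these counts were 6 and 7, beside 30.6%. None of the 5 reduced markers was called against Control 3 alone (adjusted p between 0.0853 and 0.205). The part of these shifts in the changes of Hspb8, Cryab and Hspb2 was not tested.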

How the data were processed

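RNA from 3 Control and 3 Celf1cKO newborn lens samples was sequenced as strand-specific paired-end libraries. After trimming, the authors used STAR 2.7.8a for alignment to GRCm38.p6 and featureCounts 2.0.0 for gene counts from unique alignments, removed genes of very low CPM and normalized with edgeR. They deposited log2 CPM values with a small prior count for 13931 genes, and the lowest value, -4.41, marks genes without a read. The table also holds the authors' own log2 fold-change, F score, p-value and FDR, none of which was used, and an average log2 CPM, which served as expression cut-off.

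Read numbers were recovered from the even spacing of the log2 CPM values, and 100% of values up to 2000 reads lay within 0.1 of a whole number. Floors cover counting error only. The authors' scaling factors ran from 0.887 to 0.964 in Control and from 1.06 to 1.12 in Celf1cKO, and the prior count understates the change of low genes.

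Groups were taken from the labels. Differences were tested with limma 3.58.1 (R 4.3.3) on the deposited log2 CPM, with a variance trend and no block, adjusted by Benjamini-Hochberg over all genes, after a check on simulated data. A call needed an average log2 CPM above 1, an adjusted p under 0.05 and a log2 fold-change beyond 0.58 up or down. Single values were compared by two-sided exact permutation. The replicate numbers of the labels were read as pairs because deviations of same-numbered libraries correlated at 0.259, 0.392 and 0.378, although the paper describes no pairing. Deviations from a group mean cancel out within a group, so some matching of the libraries is bound to run together. These correlations therefore cannot establish pairing. Libraries are separate pools of lenses, and nothing says whether the lenses of a pool came from 1 animal.

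Exon lengths and positions came from GENCODE M21, in which 13928 identifiers were found and 3 were not. Transcript likeness was computed with blastn, and promoter windows came from RefSeq (GRCm38.p6). The genes and lists were chosen with earlier results of these data known, and 1 gene of the lists is not reported here. Genes named were all members, the called and up to 4 most abundant other genes of each list, the 5 genes nearest to the called members with the largest rise and fall, and Celf1. Flnc, Cacybp, Ahsa1, Hsbp1, Hsf1, Hsf2 and the named markers of cell types were otherwise chosen with their values in view. Alternatives comprised a robust prior, no variance trend, the replicate block, log2(CPM + 1), median centring, quantile normalization, total-count scaling, scaling without crystallins, adjustment over expressed genes, limma voom, other cut-offs and each library left out. The term for Y-linked reads was added after seeing the data.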

Additional observations from a re-analysis of the deposited data

How the results depend on the processing

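With 3 libraries a group, calls close to the cut-offs depended on the fit, while Hspb8 had a log2 fold-change between 3.41 and 4.11 under every alternative run. Of the 9 genes 2 were called in the main limma model (1030 of all 13931 genes) and 1 with the replicate block (1279 of all genes). There was 1 without the variance trend (421 of all genes), 1 with log2(CPM + 1) (998) and 1 with total-count scaling (1867). With the term for Y-linked reads there were 0 (16 of all genes). Leaving out each library in turn gave 0 to 3 calls, with 0 without Control 2 and 0 without Celf1cKO 3, and all 13931 genes then gave 1 call in each case. Of the 55 genes of the lists 3 were called in the main model and 11 with total-count scaling. There were 12 at an adjusted p under 0.05 alone (1655 of all genes) and 1 with the Y-linked term (Bfsp2). With a library left out there were between 0 and 6, with 0 without Control 2 or without Celf1cKO 3. The 6 came without Celf1cKO 1, a fit that called 1916 of all genes. The block ended the call of Cryab and added Gfap, and it changed no other call among the members and lists. The direction turned for Cryab with quantile normalization (0.11), for Hspb11 with total-count scaling (0.18) and with the Y-linked term (0.047), for Bag3 with quantile normalization (0.029) and with total-count scaling (0.18), and for the alpha crystallin share when taken of crystallin reads (5.42 percentage points). Cryaa, first in every library, is set to 0 by the construction of quantile normalization. With a library left out, the log2 fold-change ran from -0.085 to 0.036 for Hspb11 and from -0.17 to 0.027 for Bag3, the alpha crystallin share from -1.54 to -1.22 percentage points, and the log2 ratio of Cryaa to Cryab from 0.30 to 0.52. With median centring, quantile normalization, voom, adjustment over expressed genes or an adjusted p under 0.1, Hspb2 passed the test, with log2 fold-changes between -0.74 and -0.71. Paired by number, the ratio had a sign-flip p of 0.25 by exact permutation, the smallest that 3 pairs allow. For the other changes the cause was not tested.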
